A study of Mus musculus with 8 samples.

Results

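Calcium release from the endoplasmic reticulum was examined at the transcript level through 9 genes: the ryanodine receptor genes Ryr1, Ryr2 and Ryr3, the IP3 receptor genes Itpr1, Itpr2 and Itpr3, and the calcium pump genes Atp2a2, Atp2b1 and Atp2b2. They were picked by gene name from the table of 54532 genes, all 9 were present, and all 9 were among the 16745 genes with enough counts to be tested. The RNA came from medial prefrontal cortex of adult male C57BL/6 mice, collected 1 h after a conditioned place preference test in a study of memory for methamphetamine. The animals formed a retrieval group and a non-retrieval group, with 4 libraries each and 2 to 3 mice pooled per library. The sources used here do not give the drug dose, whether every mouse received it, or what the non-retrieval mice experienced in place of retrieval. Memory retrieval could therefore not be separated from handling or exposure to the apparatus.

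Neurons store calcium in the endoplasmic reticulum and release it through 2 kinds of channel. Ryanodine receptors open when cytosolic calcium rises, which amplifies calcium entry through voltage-gated channels and NMDA receptors. IP3 receptors open when phospholipase C, driven by Gq-coupled receptors such as the metabotropic glutamate receptors, produces IP3. SERCA pumps, of which Atp2a2 encodes the form found in most tissues, return calcium to the store, and PMCA pumps, encoded among others by Atp2b1 and Atp2b2, move it out of the cell. In cortex and hippocampus, release from these stores is known to shape dendritic calcium signals, synaptic plasticity and calcium-dependent transcription.

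Total counts per library ran from 25013503 to 29547978. Of all tested genes, 4.57% passed the test at an adjusted p under 0.05 (edgeR quasi-likelihood test, Benjamini-Hochberg adjustment over all 16745 genes), 3.67% higher and 0.902% lower in retrieval. The libraries of both groups were fully separated for 11.1% of tested genes, with retrieval above in 6.59% and below in 4.53%, and 18.5% had an unadjusted p under 0.05. The share of calls that were higher was 80.3%, or 69.9% with a gene length offset, 68.6% with limma-voom and 53.6% with an offset on length and GC content together, an alternative added after the data were seen. The activity-regulated genes Fos (log2 fold change 2.21, SE 0.16), Arc (2.15, SE 0.21) and Egr1 (1.72, SE 0.10) were higher in retrieval, with edgeR adjusted p of 2.24e-07, 9.37e-06 and 3.15e-08. The cortical markers Slc17a7 (at least 1845 CPM) and Tbr1 (at least 211 CPM) were present in every library, where CPM are counts scaled to a common library size with TMM factors. Retrieval replicate 2 stood apart in markers of striatal projection neurons, the cells beneath this cortex. Its summed level was 750 CPM over 10 genes, against 460 to 588 CPM in the other 7 libraries. Between the groups, edgeR called 0 of these 10 markers, of which 5 reached an unadjusted p under 0.05. The estimates of 9 were positive, with a median log2 fold change of 0.24 over the 10. The part of these markers in the value of Ryr3 was not tested.

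Of the 9 genes, 1 passed the test. Ryr3 was higher in retrieval, 0 genes were lower, and the other 8 did not pass. Itpr2 came nearest among those 8 and was the only one of them with an unadjusted p under 0.05. The median log2 fold change of the 9 genes was 0.026, against -0.0095 over all tested genes, and 5 of the 9 estimates were positive. Set beside the 4.57% of all tested genes that passed, 1 of 9 is a count too small to describe the set as changed. The results are therefore about single genes.

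**Figure D1:**
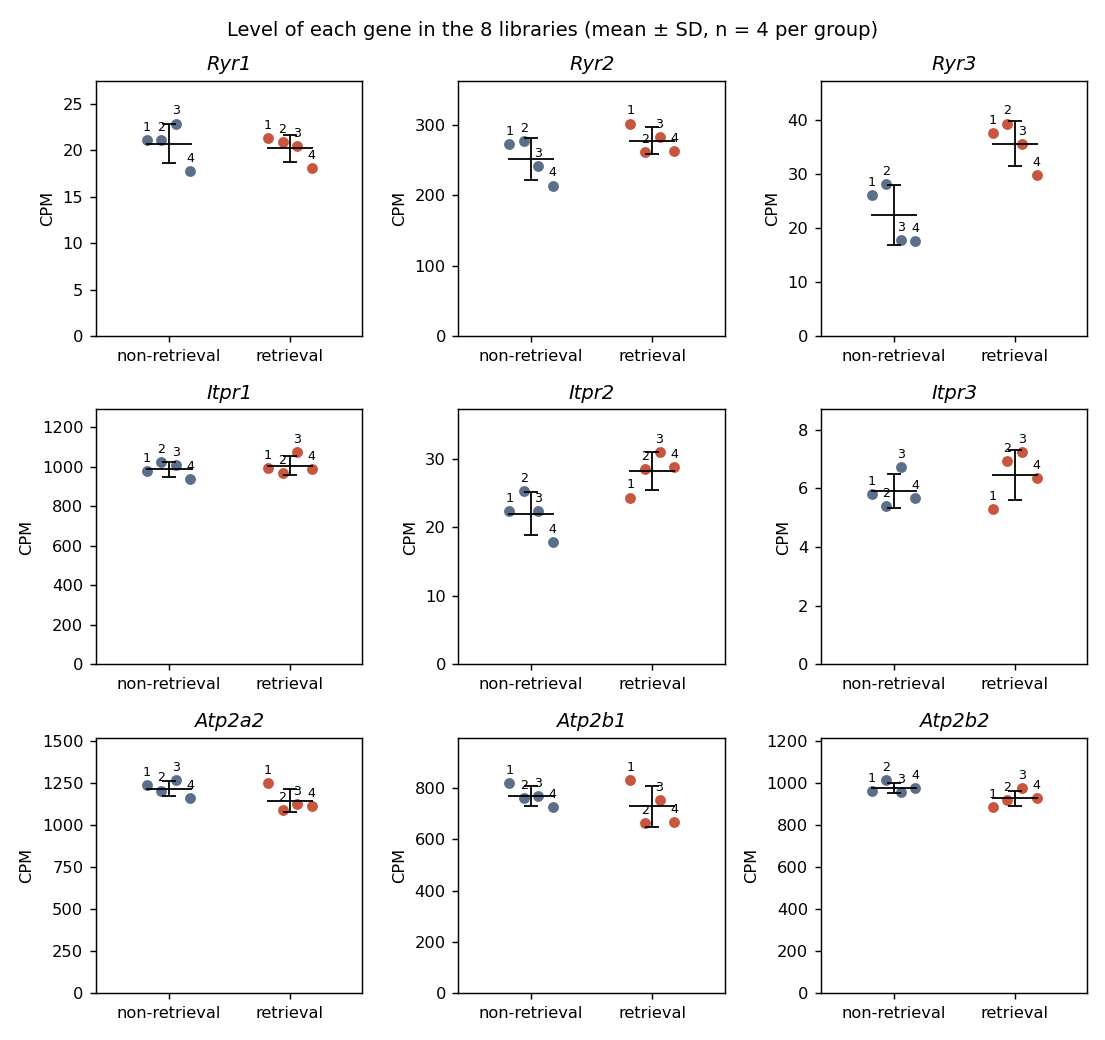
Scaled level (CPM, each axis starting at 0) of the 9 genes in the 4 non-retrieval and 4 retrieval libraries; each point is 1 library, numbered by its replicate, and bars give the mean ± SD. For Ryr3 all 4 retrieval libraries (29.9 to 39.4 CPM) lie above all 4 non-retrieval libraries (17.7 to 28.2 CPM), and for the other 8 genes the groups overlap.

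Per kilobase of gene model, the scale on which genes can be compared, the 9 genes fell into high, middle and low levels. Values are RPKM, CPM divided by the exonic length in kilobases, as mean ± SD over all 8 libraries. Atp2a2 was the most abundant at 194 ± 11.0 RPKM, followed by Atp2b2 at 75.4 ± 3.11, Itpr1 at 54.4 ± 2.24 and Atp2b1 at 49.3 ± 4.08 RPKM. The levels of Itpr1 and Atp2b1 overlapped across libraries, while Atp2b2 lay above Itpr1 in all of them. Ryr2 followed at 9.17 ± 0.933 RPKM, and then came a group of low genes, Itpr2 (1.69 ± 0.289), Ryr3 (1.53 ± 0.442), Ryr1 (0.937 ± 0.0781) and Itpr3 (0.687 ± 0.0821). Neighbours in this low group overlapped, apart from Ryr1 and Itpr3. Gene models include every annotated exon, so a gene with many rarely used exons has an understated RPKM.

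**Figure D2:**
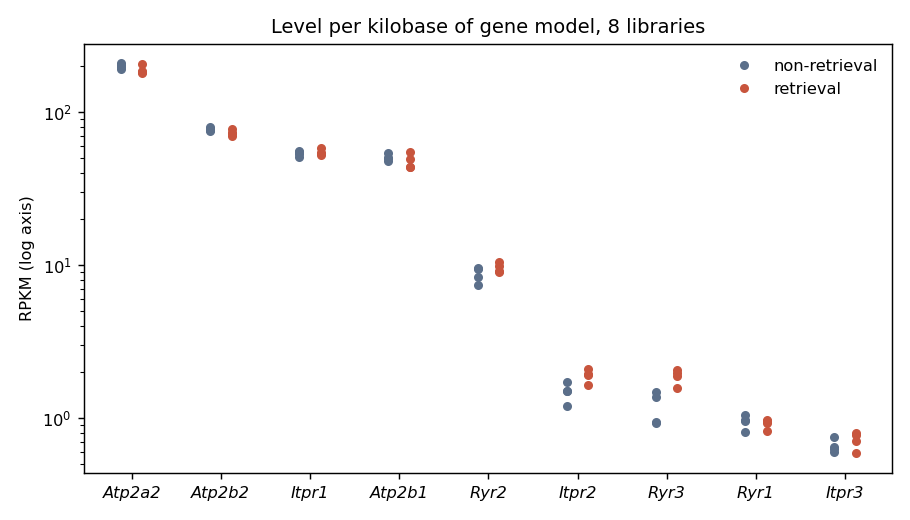
Level per kilobase of gene model (RPKM, log axis) of the 9 genes in order of their mean, with 1 point per library, non-retrieval in blue and retrieval in red. Atp2a2 lies highest at a mean of 194 RPKM, the abundant channel gene Itpr1 at 54.4 RPKM is far above Ryr2 at 9.17 RPKM, and Itpr2, Ryr3, Ryr1 and Itpr3 lie below 2.1 RPKM.

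Ryr3 encodes the ryanodine receptor form that is found at low levels in many tissues and in brain mainly in hippocampus and striatum. Its level was 26.2, 28.2, 17.8 and 17.7 CPM in non-retrieval replicates 1 to 4, and 37.7, 39.4, 35.7 and 29.9 CPM in retrieval replicates 1 to 4. Non-retrieval replicates 3 and 4 were the lowest, and the lowest retrieval library stood just above the highest non-retrieval library. The mean was 22.5 ± 5.53 CPM without and 35.7 ± 4.13 CPM with retrieval (SD, n = 4). This is a log2 fold change of 0.67 (SE 0.14), or 1.59-fold with a 95% interval of 1.30 to 1.94. The edgeR adjusted p was 0.00955, and Ryr3 ranked 234 of the 16745 tested genes by p. Counts behind these values were 499 to 1120 reads per library. The call held with any 1 library left out, with log2 fold changes of 0.57 to 0.80, and the edgeR adjusted p came closest to the threshold without non-retrieval replicate 3 (0.0492) or replicate 4 (0.0414). Without retrieval replicate 2, the library with the highest striatal markers, it was 0.62 (edgeR adjusted p = 0.0191).

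Ryr3 (ENSMUSG00000057378) lies on the minus strand of chromosome 2 from 112631355 to 113217096 in the build GRCm38, and its longest coding transcript in GENCODE M21 has 104 exons. The 3' end of the gene overlaps Aven, a gene on the opposite strand that encodes an inhibitor of apoptosis. The 2 genes share 916 exonic bases, between 112631355 and 112633122, which is 4.83% of the exonic length of Ryr3. Because the strand setting of the counting is not given in the sources used here, reads in that stretch could not be told apart. Aven had 9.60 ± 0.245 CPM in the non-retrieval libraries and 8.73 ± 0.548 CPM in the retrieval libraries (SD, n = 4), a log2 difference of -0.14 (SE 0.09) at an edgeR adjusted p of 0.456. Over the 8 libraries Aven had 2041 counts in all, which is 31.6% of the 6456 counts of Ryr3. These are counts of the whole Aven gene, and reads within the shared stretch were not counted separately. The part of shared reads in the value of Ryr3 was not tested.

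Ryr2, the main ryanodine receptor of heart and the most abundant one in brain, did not pass. It stood at 272, 277, 241 and 214 CPM in non-retrieval replicates 1 to 4 and at 302, 262, 282 and 263 CPM in retrieval replicates 1 to 4. The groups overlapped, and non-retrieval replicates 3 and 4 were again the lowest libraries. The log2 fold change was 0.14 (SE 0.08; edgeR adjusted p = 0.361), with a 95% interval of the fold from 0.982 to 1.24. With an offset for gene length the estimate was -0.06, so that its sign depended on the scaling. Ryr1, the channel of skeletal muscle, had 20.7 ± 2.12 CPM in the non-retrieval and 20.2 ± 1.45 CPM in the retrieval libraries (SD, n = 4), a log2 difference of -0.035 (SE 0.09) at an edgeR adjusted p of 0.878. Its fold had a 95% interval of 0.855 to 1.11.

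Within the family, Ryr2 made up most of the ryanodine receptor transcripts per kilobase in both groups. Its share was 80.4% ± 0.604 in non-retrieval and 77.4% ± 1.77 in retrieval (SD, n = 4). Ryr3 made up 9.04% to 12.3% in the non-retrieval libraries and 13.7% to 17.1% in the retrieval libraries. Ryr1 took 8.79% ± 0.955 and 7.45% ± 0.323 (SD, n = 4). The groups did not overlap in the share of any of the 3 genes. The shares sum to a fixed total, so these separations are not independent, and in CPM Ryr1 and Ryr2 overlapped. Among the IP3 receptor, PMCA and SERCA genes, the groups separated only in the share of the PMCA gene Atp2b4. It made up 14.85% to 17.99% in the non-retrieval libraries and 18.85% to 20.03% in the retrieval libraries. How often shares separate in gene families beyond these was not examined. These shares rest on the same counts as the fold changes and were given no test of their own. A share does not depend on the scaling factor of a library, but an offset for gene length or GC content can alter it. The shares were not recomputed with such offsets.

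Itpr2 encodes the IP3 receptor that carries most calcium release in astrocytes and is also expressed in newly formed oligodendrocytes. It stood at 22.4, 25.3, 22.4 and 17.8 CPM in non-retrieval replicates 1 to 4 and at 24.3, 28.5, 31.0 and 28.8 CPM in retrieval replicates 1 to 4. All retrieval libraries but replicate 1 lay above every non-retrieval library. The log2 fold change was 0.36 (SE 0.10), or 1.28-fold with a 95% interval of 1.10 to 1.49, and the edgeR adjusted p of 0.0581 missed the threshold. The outcome depended on the method, with a call in 6 of the 16 alternatives. DESeq2 (adjusted p = 0.0252) and limma-voom (adjusted p = 0.00915) called Itpr2 higher, as did edgeR without a filter on low counts (adjusted p = 0.00357), without non-retrieval replicate 2 (adjusted p = 0.0344) and without retrieval replicate 1 (adjusted p = 0.0124). The remaining call came with the replicate number as a block (edgeR adjusted p = 0.0116). With the length offset the log2 fold change was 0.25 (edgeR adjusted p = 0.171).

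Markers of oligodendrocytes and myelin were also higher in the retrieval libraries, where edgeR called 6 of the 10 higher and 0 lower. The 10 oligodendrocyte and myelin markers summed to 3398 to 4008 CPM in the non-retrieval and 4121 to 5980 CPM in the retrieval libraries, and all 10 were detected in every library. The 8 astrocyte markers summed to 3669 to 4164 CPM and 4061 to 4717 CPM, ranges that overlap, and edgeR called 0 of the 8, of which 2 reached an unadjusted p under 0.05. The 8 microglial markers summed to 328 to 343 CPM and 300 to 353 CPM, and edgeR called 0 of the 8, of which 1 reached an unadjusted p under 0.05. Their part in the values of Itpr2 and Ryr3 was not tested. In tissue RNA, more cells of a type and more RNA per cell cannot be told apart.

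Itpr1 encodes the main IP3 receptor of neurons. It was close to level across libraries, at 979, 1022, 1009 and 937 CPM in non-retrieval replicates 1 to 4 and at 991, 967, 1074 and 986 CPM in retrieval replicates 1 to 4. The groups overlapped. The log2 fold change was 0.026 (SE 0.06; edgeR adjusted p = 0.855) and the fold had a 95% interval of 0.935 to 1.11. With the length offset the estimate was -0.115, and it did not pass there either (edgeR adjusted p = 0.322). Itpr1 is known for its very high level in cerebellar Purkinje cells. The 6 markers listed for cerebellar Purkinje and granule cells summed to 121 to 131 CPM in the non-retrieval and 105 to 136 CPM in the retrieval libraries. Calb1, which cortical neurons also express, made up most of this at 71.1 to 98.3 CPM per library, Car8, Cbln1 and Zic1 lay between 7.06 and 13.6 CPM, and Pcp2 (at most 0.214 CPM) and Gabra6 (at most 0.0356 CPM) were at or near 0. Of the 4 that were tested, edgeR called 0, and 1 reached an unadjusted p under 0.05. Their part in the level of Itpr1 was not tested. Itpr3, a form better known from epithelial and taste cells, was the least abundant at 5.91 ± 0.581 CPM in the non-retrieval and 6.45 ± 0.859 CPM in the retrieval libraries (SD, n = 4). Its log2 difference was 0.12 (SE 0.13) at an edgeR adjusted p of 0.646, and turned to -0.015 with the length and GC offset. With 134 to 195 reads per library, its 95% interval of the fold reached from 0.907 to 1.31.

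Itpr1 supplied nearly all IP3 receptor transcripts per kilobase, 96.2% ± 0.238 in non-retrieval and 95.5% ± 0.402 in retrieval (SD, n = 4). Itpr2 supplied 2.64% ± 0.281 and 3.31% ± 0.261, and Itpr3 1.17% ± 0.113 and 1.25% ± 0.147 (SD, n = 4). The summed level of the 3 genes was 1015 ± 41.0 CPM in the non-retrieval and 1039 ± 49.6 CPM in the retrieval libraries (SD, n = 4), a gap smaller than the SD of either group. For the ryanodine receptors the sum was 294 ± 35.9 CPM and 333 ± 21.7 CPM (SD, n = 4). That gap was larger than the SD of either group, though the libraries overlapped. Mean Ryr2 was 251 ± 29.5 CPM without and 277 ± 19.0 CPM with retrieval (SD, n = 4). In CPM this gap was wider than that of Ryr3, whose means were 22.5 and 35.7 CPM. Ryr3, which passed, was thus a minor member. The major member, Ryr2, did not pass, which does not show that its level was unchanged.

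The 3 pump genes all had small negative estimates. Atp2a2 (SERCA2), which refills the store, stood at 1237, 1207, 1267 and 1160 CPM in non-retrieval replicates 1 to 4 and at 1250, 1093, 1129 and 1114 CPM in retrieval replicates 1 to 4. Retrieval replicate 1 lay among the non-retrieval libraries and the other 3 retrieval libraries lay below all of them. The log2 fold change was -0.087 (SE 0.06; edgeR adjusted p = 0.472), with a 95% interval of the fold from 0.862 to 1.03.

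Atp2b1 (PMCA1), the widely expressed calcium pump of the cell surface, had 770 ± 39.1 CPM in the non-retrieval and 729 ± 79.5 CPM in the retrieval libraries (SD, n = 4), a log2 difference of -0.08 (SE 0.07) at an edgeR adjusted p of 0.605. Retrieval replicates 2 and 4, at 665 and 667 CPM, were the lowest of the 8 libraries and replicate 1, at 831 CPM, was the highest. Atp2b2 (PMCA2), a fast pump that is enriched in neurons, had 975 ± 25.0 CPM in the non-retrieval and 926 ± 36.8 CPM in the retrieval libraries (SD, n = 4), a log2 difference of -0.075 (SE 0.06) at an edgeR adjusted p of 0.510. Retrieval replicate 3, at 974 CPM, lay inside the non-retrieval range of 955 to 1011 CPM. With the length and GC offset both passed as lower, Atp2b1 at -0.18 (edgeR adjusted p = 0.0140) and Atp2b2 at -0.22 (edgeR adjusted p = 0.00302). No other alternative called either of them.

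**Figure D3:**
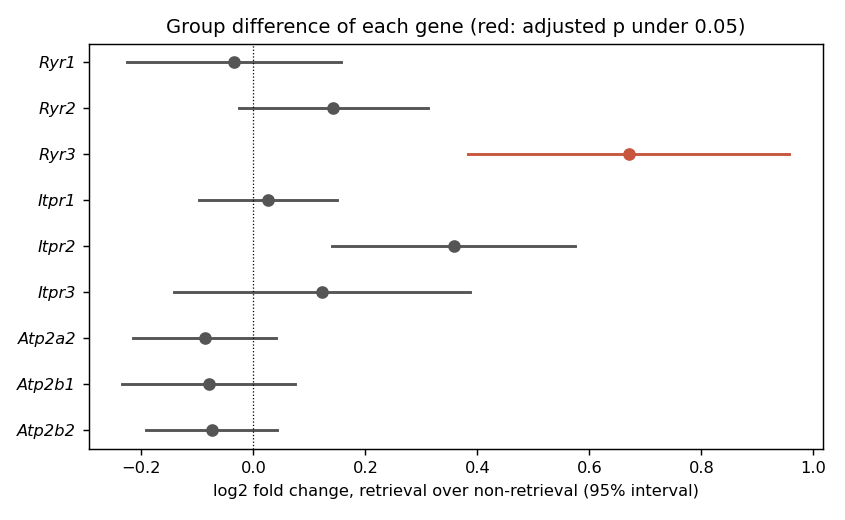
Log2 fold change of the 9 genes, retrieval over non-retrieval, with the 95% interval of each estimate (edgeR, 4 libraries per group, intervals not adjusted for the number of genes). The intervals of Ryr3 (0.38 to 0.96) and Itpr2 (0.14 to 0.57) lie above 0, and only Ryr3, in red, had an adjusted p under 0.05.

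These are long genes, with exonic lengths of 6081 (Atp2a2) to 28790 bases (Ryr2). Offsets for gene length, alone or with GC content, moved the estimates of all 9 genes downward. Their median was -0.11 with either offset, against 0.026 with TMM factors alone, while the median of all tested genes moved only to -0.020 and -0.024. Under both offsets Ryr3 remained called, at 0.53 (edgeR adjusted p = 0.0113) and 0.52 (edgeR adjusted p = 0.00432). The cause of this shift was not tested.

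**Figure D4:**
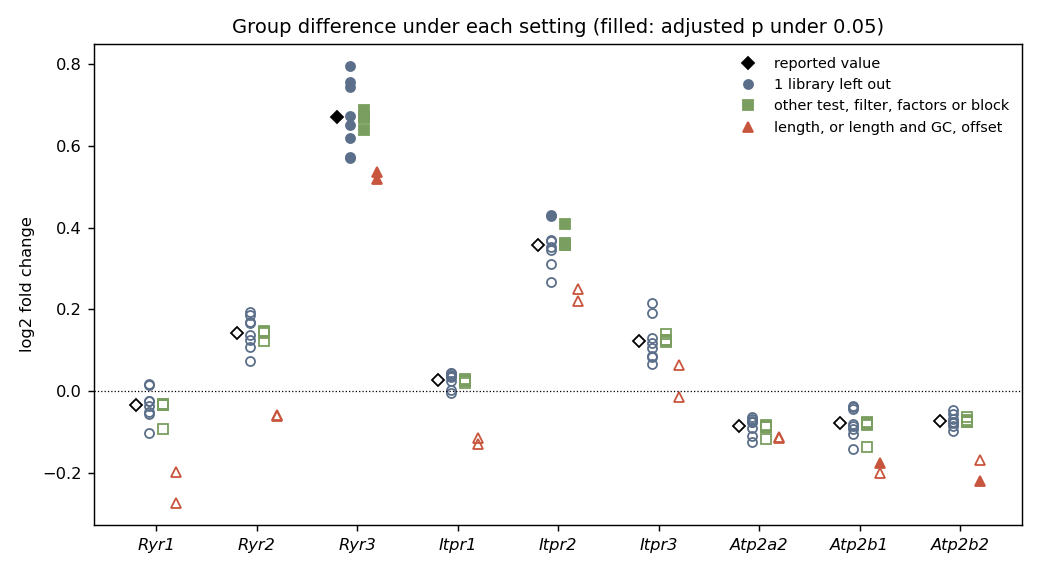
Log2 fold change of the 9 genes as reported (diamonds), with 1 library left out (circles), with another test, filter, set of factors or the replicate block (squares), and with a length or a length and GC offset (triangles); filled symbols had an adjusted p under 0.05. Ryr3 is filled in all 16 alternatives, between 0.52 and 0.80, Itpr2 in 6 of 16, and the triangles lie below the reported value for every gene.

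The sequence before the transcription start was taken from RefSeq (GRCm38.p6) for 6 of the 9 genes, with 9 starts in all. Ryr3, Itpr1 and Atp2a2 had no entry. Since Egr1 and the AP-1 gene Fos were among the higher genes, the 250 bases before each start were searched on both strands for the letters GCGNGGGCG (EGR), TGANTCA (AP-1), TGACGTCA (CRE) and CACGTG (E-box). Of 32851 promoters of the same length in the table, 4.70% held the EGR letters, 6.75% the AP-1 letters, 1.55% the CRE letters and 6.02% the E-box letters. Among the 9 starts, the EGR letters occurred once before Itpr3 and once before 1 of 3 starts of Atp2b2, the E-box letters once before Itpr3, and the AP-1 and CRE letters before none. Itpr3 and Atp2b2 are shown because they hold the EGR letters, and Itpr2 because it had the largest difference among genes with an entry. The matches are in capitals, each sequence is read 5′ to 3′ on the strand of its gene, and a match is a description of letters only.
Itpr3, chr17:27057054-27057303, plus strand: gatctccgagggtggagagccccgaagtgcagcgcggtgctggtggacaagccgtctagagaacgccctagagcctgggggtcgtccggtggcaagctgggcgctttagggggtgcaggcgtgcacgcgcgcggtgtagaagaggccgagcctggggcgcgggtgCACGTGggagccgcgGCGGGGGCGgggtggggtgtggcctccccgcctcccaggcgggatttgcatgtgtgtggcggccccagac
Atp2b2, chr6:114042081-114042330, minus strand: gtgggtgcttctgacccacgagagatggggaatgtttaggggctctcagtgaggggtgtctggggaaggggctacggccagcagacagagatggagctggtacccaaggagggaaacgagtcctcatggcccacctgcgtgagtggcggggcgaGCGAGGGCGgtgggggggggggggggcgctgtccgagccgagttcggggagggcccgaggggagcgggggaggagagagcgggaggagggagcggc
Itpr2, chr6:146502224-146502473, minus strand: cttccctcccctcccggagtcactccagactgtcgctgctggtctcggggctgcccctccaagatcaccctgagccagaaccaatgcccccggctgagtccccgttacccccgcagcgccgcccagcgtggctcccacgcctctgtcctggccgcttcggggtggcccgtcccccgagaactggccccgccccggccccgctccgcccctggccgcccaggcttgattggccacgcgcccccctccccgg

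All 3 stretches are rich in G and C, at 72.0% for Itpr3, 69.6% for Atp2b2 and 74.4% for Itpr2. The other searched starts ran from 52% (Atp2b2) to 80.8% (Atp2b1), and those of Atp2b1 held no EGR letters. GC content was not measured over promoters of other genes. The start used for Itpr3 and Itpr2 is the gene start that the count table gives, and that of Atp2b2 is a different one.

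The genes around these channels were read from 6 lists with 118 symbols, of which 114 were tested. Of these, 5 were higher and 1 lower in retrieval (5.26%, against 4.57% of all tested genes), and their median log2 fold change was -0.016. Among 27 tested partners of the release channels, Homer1, a scaffold that ties metabotropic glutamate receptors to IP3 receptors (0.88, SE 0.08; edgeR adjusted p = 3.54e-06), and Bcl2, an anti-apoptotic protein that binds IP3 receptors (0.36, SE 0.09; edgeR adjusted p = 0.0289), rose, 0 fell and 25 did not pass. Counts are per gene, so which transcript forms of Homer1 rose could not be told. The list median was -0.0044. The call of Bcl2 ended when non-retrieval replicate 2, 3 or 4, or replicate 3 or 4 of retrieval, was left out (edgeR adjusted p 0.0519 to 0.107). Junctophilins, which hold the store close to the cell surface, did not pass, with Jph3 at 422 and 428 CPM and Jph4 at 454 and 500 CPM in non-retrieval and retrieval.

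Among 15 tested pumps and luminal proteins of the store, Hspa5, the luminal chaperone BiP (0.40, SE 0.08; edgeR adjusted p = 0.00572), rose, 0 fell and 14 did not pass (median -0.029). Calr, the luminal calcium buffer calreticulin, stood at 277 and 294 CPM in non-retrieval and retrieval. Among 12 genes of calcium extrusion, Slc24a4, a potassium-dependent sodium/calcium exchanger (0.35, SE 0.07; edgeR adjusted p = 0.0133), rose, 0 fell and 11 did not pass (median 0.046). Its call ended when non-retrieval replicate 3 (edgeR adjusted p = 0.0589) or 4 (edgeR adjusted p = 0.0576) was left out. For the store-operated entry genes, which include the sensors Stim1 and Stim2 and the Orai channels, edgeR called 0 of 13, of which 1 reached an unadjusted p under 0.05, while DESeq2 called 0 and limma-voom 1.

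On the side that produces and removes IP3, 1 of 32 genes rose and 1 fell (median -0.0050). Chrm3, a Gq-coupled muscarinic receptor, fell from 97.8 ± 3.25 CPM without to 79.0 ± 3.51 CPM with retrieval (SD, n = 4), a log2 difference of -0.31 (SE 0.06) at an edgeR adjusted p of 0.00734, and all 4 retrieval libraries lay below all 4 non-retrieval libraries. Itpkc, a kinase that phosphorylates IP3, rose from 5.12 ± 1.06 CPM without to 7.59 ± 0.482 CPM with retrieval (SD, n = 4), a log2 difference of 0.56 (SE 0.14) at an edgeR adjusted p of 0.0262. The call of Itpkc ended when non-retrieval replicate 1, 2 or 3, or replicate 3 or 4 of retrieval, was left out (edgeR adjusted p 0.0538 to 0.0743). Grm5, the main metabotropic glutamate receptor upstream of IP3 in cortex, stood at 176 and 189 CPM in non-retrieval and retrieval and did not pass (edgeR adjusted p = 0.543). Of 15 genes of mitochondrial calcium uptake and contacts with the store, edgeR called 0, of which 2 reached an unadjusted p under 0.05, while DESeq2 called 0 and limma-voom 1 (median -0.071).

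**Figure D5:**
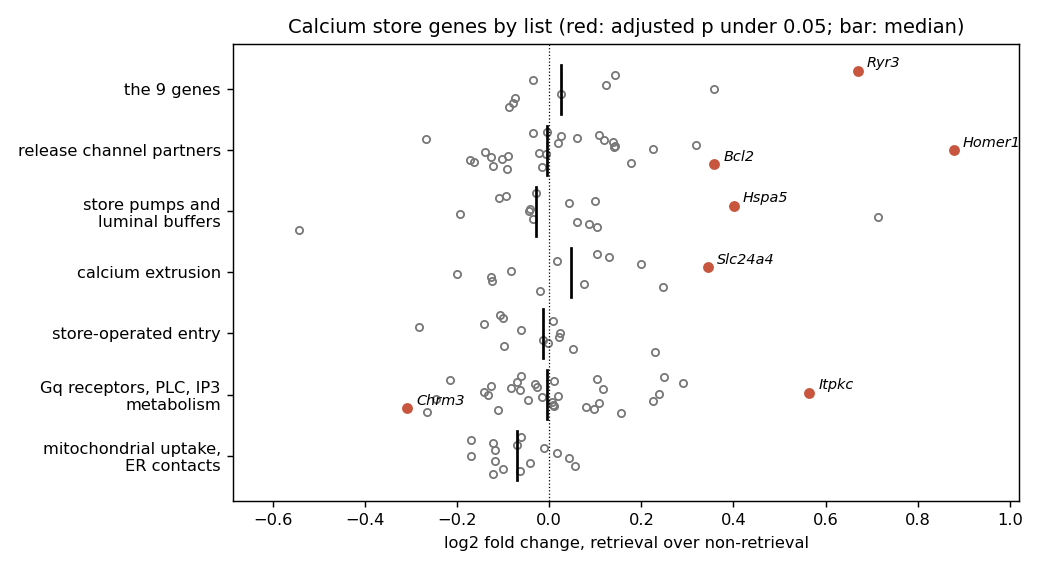
Log2 fold change, retrieval over non-retrieval, of the 9 genes and of 6 lists of genes that act with them; each point is 1 gene, red points had an adjusted p under 0.05 and are named, and bars give the list median. Of the 114 tested genes in the 6 lists 5 are red and higher and 1, Chrm3, is red and lower, and the list medians lie between -0.071 and 0.046.

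The genes whose levels followed each family's most abundant member most closely over the 8 libraries were ranked by Pearson's r of log2 CPM among protein-coding genes with a mean of at least 1 CPM. For Ryr2 these were Grin2b (0.991), an NMDA receptor subunit gene, Nf1 (0.977) and Atp8b1 (0.976). For Itpr1 they were Acadl (0.949), Nrarp (0.913) and Abca8a (0.913), for Atp2a2 Spin1 (0.988), Jrkl (0.985) and Svip (0.985), and for Atp2b2 Fbxo36 (0.974), Pik3cg (0.970) and Akip1 (0.967). For Ryr3, added after its values were seen, they were Tnrc6a (0.994), Rai14 (0.985) and Pou2f1 (0.985). Fbxo36, Pik3cg and Akip1, named for Atp2b2, had means of 1.64, 2.78 and 2.20 CPM, near the minimum of 1 CPM. The points share libraries and sequencing depth, and the genes were picked for their high r, so these are descriptions only.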

How the data were processed

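The authors deposited raw read counts per gene in 1 table, with the length of each gene model, for 8 libraries of pooled mice. The build GRCm38 and the tools featureCounts 1.5.0-p3 and HISAT2 2.0.5 are named in the submitters' processing notes; the sources used here do not give the strand setting or the annotation release. Member coordinates in the table equal those of GENCODE M21.

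Genes passing filterByExpr were scaled with TMM factors and compared with edgeR 4.0.16 (R 4.3.3; quasi-likelihood F test, two-sided, Benjamini-Hochberg over all tested genes), the 8 libraries in 1 fit without covariates. The threshold was an adjusted p under 0.05. Log2 CPM used a prior count of 2. Alternatives were RLE factors, other filters, DESeq2 1.42.0, limma-voom 3.58.1 with quality weights, the replicate number as a block, a loess offset (span 0.5) for gene length, and each library left out; an offset for length and GC content was added later. The fits were tested on simulated counts.

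The 9 genes and all lists were chosen with earlier results of these data known. Named are the 9 genes, up to 4 called genes per pathway list, Fos, Arc and Egr1, and the 3 genes most like each family's most abundant member; other names were chosen after their values were seen. Of the listed symbols, Trdn, Pln and Sln were too low to test and 1 symbol was not matched in the table. Fold intervals are 95% intervals of single estimates. Library totals of 25013503 to 29547978 counts set the depth. Each p-value sets a group difference against the spread between pools, and the spread between single mice was not seen.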

Additional observations from a re-analysis of the deposited data

How the results depend on the processing

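Ryr3 kept its direction and its call in all 16 alternatives. The number of the 9 genes called, 1 as reported, was 2 without a filter on low counts, with DESeq2, with limma-voom and with the replicate block, the added gene being Itpr2 each time, 3 with the length and GC offset (Ryr3, Atp2b1 and Atp2b2), and 1 to 2 with 1 library left out. The count of all called genes, 766 as reported, was 1619 with limma-voom, 1791 with the replicate block, 1505 with the length and GC offset, and 330 to 1360 with 1 library left out. Of the non-retrieval libraries, leaving out replicate 3 gave 331 and replicate 4 gave 330; of the retrieval libraries, leaving out replicate 1 gave 1360, replicate 3 gave 420 and replicate 4 gave 397. Most pathway lists moved too. With limma-voom and with the replicate block alike, calls went from 2 to 4 for release channel partners, from 1 to 3 for calcium extrusion, from 2 to 5 for IP3 production and removal and from 0 to 1 for mitochondrial uptake, and limma-voom added 1 for store-operated entry. The length and GC offset gave 3, 2, 6, 3 and 0 for these 5 lists in that order. Extrusion had 2 calls with the length offset, without a filter and with DESeq2. Without retrieval replicate 1 the 5 lists had 4, 2, 3, 1 and 1 calls. Partners had 1 call when replicate 2, 3 or 4 of non-retrieval, or replicate 3 or 4 of retrieval, was left out, extrusion had 0 without non-retrieval replicate 3 or 4 and 2 without replicate 2, and IP3 genes had 1 without non-retrieval replicate 3 or retrieval replicate 3 or 4. Store pumps and luminal buffers had 1 call in every alternative. The sign turned for Ryr2 with the length offset (-0.059) and with the length and GC offset (-0.061), for Itpr1 with the same (-0.115 and -0.13), and for Itpr3 with the length and GC offset (-0.015). With 1 library left out, Ryr1 ran from -0.102 to 0.0165 and Itpr1 from -0.00507 to 0.0435. The cause was not tested.

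The labels do not say that replicate numbers pair libraries, and same-numbered libraries were not treated as pairs. Their deviations from the group means correlated at 0.353, 0.109, 0.0349 and 0.126 for replicates 1 to 4. These values do not settle whether the numbers mark pairs. Each of the 8 libraries correlated best with its own number, a hint from the data and not from the design. With the replicate block the log2 fold change of Ryr3 was 0.69 (edgeR adjusted p = 1.71e-05) and that of Itpr2 0.36 (edgeR adjusted p = 0.0116).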

Other observations

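Atp2b4, the PMCA4 gene and a relative of Atp2b1 and Atp2b2, was singled out after its values were seen. It stood at 394, 419, 322 and 343 CPM in non-retrieval replicates 1 to 4 and at 451, 436, 429 and 438 CPM in retrieval replicates 1 to 4. The groups did not overlap, which was also the case for 11.1% of all tested genes, and the edgeR adjusted p was 0.0735 (log2 fold change 0.25, SE 0.07). Per kilobase, Atp2b4 made up 16.4% ± 1.38 of the transcripts of the 4 PMCA genes in non-retrieval and 19.7% ± 0.555 in retrieval (SD, n = 4).

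Over the 8 libraries, the log2 CPM of Ryr3 had a Pearson's r of 0.812 with Ryr2 and 0.796 with Itpr2, and of 0.128 with Ryr1. The values share libraries and depth and include the difference between groups, so they are a description. In all 4 of these genes, non-retrieval replicate 4 was the lowest of the 8 libraries.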
